A study of Homo sapiens with 2 samples.

Results

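Interferon regulatory factors (IRFs) and 3 further interferon-induced transcriptional regulators were followed in colon organoids with and without inflammatory cytokines. The set holds 9 genes of the 36601 listed in both libraries, taken by symbol: IRF1, IRF2, IRF3, IRF7, IRF8, IRF9, NLRC5, BATF2 and ETV7. The organoids were derived from the iPS (induced pluripotent stem) cell line 1383D6, an established human line, and the series title presents them as a model of ulcerative colitis. One library holds untreated organoids (CNT). The other holds organoids exposed to TNF-α, IFN-γ and IL-1β together for 8 days (3CK), so the effects of the 3 cytokines cannot be told apart. Both cultures came through the same differentiation from 1 cell line, with Activin A, FGF2, Y-27632 and Matrigel, and then EGF at 20 ng/mL, Forskolin at 30 µM, PD98059 at 20 µM, 5-Aza-2'-Deoxycytidine at 5 µM and an agent given as A-83 at 0.5 µM. About 8300 trypsin-dissociated cells were loaded per library on the 10x Genomics platform. Each group is 1 library, so no test between CNT and 3CK was possible and no difference below has a replicate check. The 95% intervals are exact and cover counting error only.

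IRFs share a DNA-binding domain and act as the nuclear arm of interferon signalling. IFN-γ acts on genes through gamma-activated sites, whereas type I and type III interferons activate a complex with STAT2 and IRF9 that binds interferon-stimulated response elements. IRF1 then carries the signal to a further set of genes, IRF2 competes with it, IRF3 and IRF7 switch on interferon genes after pathogen sensing, and NLRC5 drives MHC class I genes. Gene spans below are those of RefSeq GRCh38.p14. In gut epithelium this network is known for antiviral defence and antigen presentation.

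The kept cells numbered 2487 in CNT and 1398 in 3CK, with a median of 28911 and 62746 UMIs (unique molecular identifiers, counts of captured transcripts) and 101831571 and 91860414 UMIs in all. Levels are CPM, the counts of a gene scaled to a common library total. Cells with at least 2 EPCAM UMIs per 10000 formed the epithelial class, with 1660 CNT and 1016 3CK cells. Cells with at least 5 UMIs per 10000 of COL1A1, COL1A2 and COL3A1 and less than 1 of EPCAM formed the mesenchymal class, with 574 and 124 cells. A further 253 and 258 cells fell in neither. These are ranges of marker counts and not sorted types: 497 CNT and 49 3CK epithelial cells also reached the collagen minimum, and 88 and 71 lay between 2 and 3 EPCAM UMIs per 10000. In mesenchymal cells the median EPCAM count was 0 per 10000 in CNT and 0.116 in 3CK, but KRT8 had a median of 19.4 and 31.5 per 10000. COL1A1 in the mesenchymal class was 3010 CPM in CNT versus 906 CPM in 3CK, so the class need not hold the same share of the mesenchyme in both libraries. The labels call the samples colon epithelial cells. The intestinal factor CDX2 was at 80.6 and 83.3 CPM in epithelial cells, and 6 hepatic-like markers led by TTR summed to 97702 CPM there in CNT and 32109 CPM in 3CK.

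All 9 genes were higher in 3CK than in CNT over all kept cells, and 7 of the 9 were at least 2-fold higher. Of the 17523 genes that reached 1 CPM in CNT or 3CK, 6.96% were at least 2-fold higher in 3CK and 11.3% at least 2-fold lower. None of the 9 was at least 2-fold lower. The median of the members' log2 ratios was 1.87, beside -0.05 for all genes, whose middle 95% spanned -2.29 to 2.25. By size of the ratio, BATF2 stood at rank 19 of 17523, NLRC5 at 76, IRF1 at 123 and ETV7 at 137. The other members stood lower, from IRF7 at rank 554 to IRF2 at rank 2123.

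**Figure D1:**
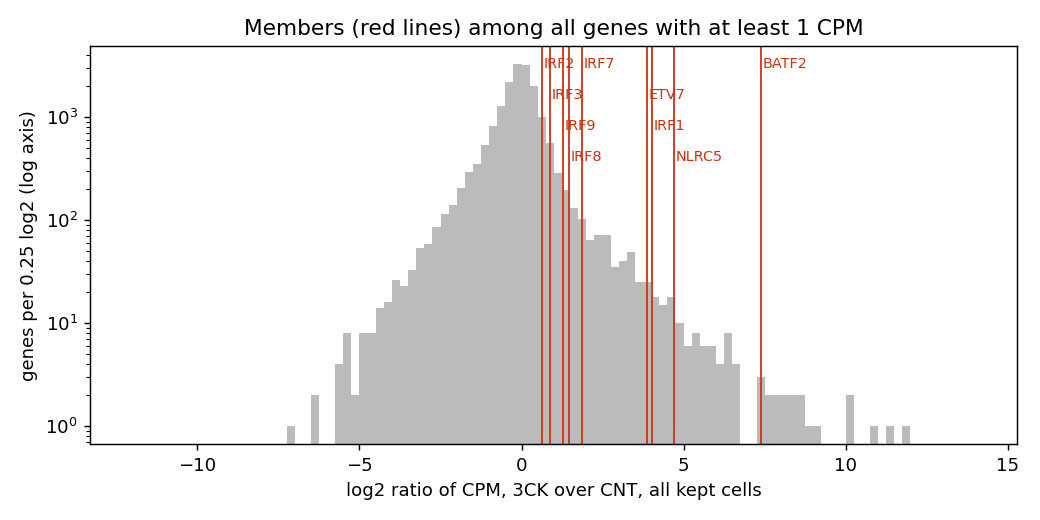
The grey bars count genes (log axis) by their log2 ratio of CPM in 3CK over CNT in all kept cells, in steps of 0.25, and the red lines mark the 9 members. Genes with 0 UMIs in one library are drawn at a floor of 3 UMIs, and the members run from IRF2 at 0.64 to BATF2 at 7.40.

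IRF1 (chr5:132481609-132490773), the activator through which much of the IFN-γ response passes, was at 23.3 CPM in CNT (2372 UMIs) and 376 CPM in 3CK (34528 UMIs). The ratio was 16.1-fold (log2 4.01, interval 3.95 to 4.07). Across the classes its level ran from 16.7 CPM in CNT epithelial cells and 49.0 CPM in CNT mesenchymal cells to 380 CPM in 3CK epithelial and 413 CPM in 3CK mesenchymal cells. The counting intervals of these 4 sums did not overlap, but the order of the 3CK classes turned with TMM scaling (log2 epithelial over mesenchymal -0.12 by totals and 0.06 by TMM). Single cells were compared after thinning each cell with at least 10000 UMIs to exactly 10000, which kept 1013 CNT and 730 3CK epithelial cells and 311 and 106 mesenchymal cells. An IRF1 UMI was then seen in 13.0% of the CNT epithelial cells and in 657 of the 730 3CK epithelial cells (interval 87.6% to 92.1%). Without thinning, over all epithelial cells, the shares were 31.9% and 83.6%. Which class free RNA alone would fill is not known for most members, so shares are read beside the CPM and not as expressing cells. In 3CK epithelial cells of that depth the tenth percentile of IRF1 was 108 CPM, the median 327 CPM and the ninetieth percentile 697 CPM, so the higher sum was spread over most cells. The median in CNT epithelial cells was 0.

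The 250 bases before the RefSeq start of IRF1 and of IRF9 (GRCh38.p14) are shown because each holds a gamma-activated site, the motif through which IFN-γ acts on its direct target genes. Capitals mark a match to TTCNNNGAA, and in IRF9 also a match to the IRF core GAANNGAA.

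IRF1, chr5:132490774-132491023, minus strand: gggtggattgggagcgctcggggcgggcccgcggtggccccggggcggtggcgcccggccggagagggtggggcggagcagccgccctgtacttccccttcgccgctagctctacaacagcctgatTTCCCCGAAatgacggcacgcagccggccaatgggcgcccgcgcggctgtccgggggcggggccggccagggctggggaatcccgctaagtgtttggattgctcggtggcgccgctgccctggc

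IRF9, chr14:24161015-24161264, plus strand: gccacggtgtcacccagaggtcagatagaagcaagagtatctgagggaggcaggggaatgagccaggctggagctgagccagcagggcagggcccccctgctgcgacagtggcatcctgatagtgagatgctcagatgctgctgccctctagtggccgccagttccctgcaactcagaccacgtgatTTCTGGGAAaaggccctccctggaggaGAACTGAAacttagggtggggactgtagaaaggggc

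The IRF1 match, TTCCCCGAA, lies 124 to 116 bases before the start. The IRF9 matches are TTCTGGGAA at 63 to 55 bases and GAACTGAA at 36 to 29 bases before the start. Both strands were searched. Of 35116 promoters of this length, 6.57% hold TTCNNNGAA, 16.2% hold GAANNGAA, 6.88% hold the response element letters GAAANNGAA and 1.12% hold the NF-kB letters GGGANTTTC. IRF8 and BATF2 could also be matched in the promoter table, with 2 starts for IRF8 and 1 for BATF2, all inside the annotated span of the gene. The first IRF8 start had the IRF core letters GAAAGGAA at 117 to 110 bases, and the second IRF8 start and BATF2 had no match to any of these motifs in this window. IRF2, IRF3, IRF7, NLRC5 and ETV7 were not matched. No window shown or described here matched the NF-kB letters. These letters are a narrow form of that motif and other forms were not searched. The lack of a match therefore does not show that IRF1 or another member lacks an NF-kB site. A match is a description of letters and not a measured site.

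IRF2 (chr4:184387729-184474550), which occupies the same elements as IRF1 and mostly opposes it, was at 19.4 CPM in CNT versus 30.3 CPM in 3CK. Its ratio of 1.56-fold (log2 0.64, interval 0.56 to 0.72) was the smallest of the 9. The level was 14.9 CPM in CNT versus 25.8 CPM in 3CK epithelial cells, and 33.5 CPM and 41.6 CPM in mesenchymal cells. The mesenchymal level was the higher one in both libraries under each scaling, with a log2 ratio of epithelial to mesenchymal in CNT of -1.17 by totals and -0.43 with each cell given equal weight. After thinning, an IRF2 UMI was seen in 14.3% of CNT and 24.5% of 3CK epithelial cells (35.4% and 58.1% without thinning).

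IRF9 (chr14:24161265-24166565), the DNA-binding subunit of the complex with STAT2, was at 23.8 CPM in CNT versus 57.6 CPM in 3CK, a ratio of 2.42-fold (log2 1.28, interval 1.21 to 1.35). In epithelial cells the level was 19.0 CPM in CNT versus 53.6 CPM in 3CK. In mesenchymal cells it was 41.7 CPM and 83.4 CPM, a ratio of 2.00-fold that lies on the 2-fold boundary (interval of the log2 ratio 0.86 to 1.14). The mesenchymal level was the higher one in both libraries under each scaling. STAT2 was higher in 3CK as well, at 23.8 CPM in CNT and 87.9 CPM in treated cells.

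IRF3 (chr19:49659572-49665857), which is present in most cells and is activated by phosphorylation after nucleic acid sensing, was at 35.6 CPM in CNT versus 66.0 CPM in 3CK. The ratio was 1.85-fold (log2 0.89, interval 0.83 to 0.95). IRF3 was at similar levels in the classes by totals, at 35.5 CPM in epithelial and 34.4 CPM in mesenchymal cells of CNT, with overlapping intervals, and at 65.5 CPM and 61.0 CPM in 3CK. With TMM the CNT log2 ratio of epithelial to mesenchymal was 0.43 in place of 0.05. After thinning, 28.4% of CNT and 46.7% of 3CK epithelial cells had an IRF3 UMI (51.4% and 72.7% without thinning).

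IRF7 (chr11:612555-615950), the IRF best known for amplifying type I interferon and itself interferon-induced, was at 21.2 CPM in CNT versus 77.7 CPM in 3CK. The ratio was 3.66-fold (log2 1.87, interval 1.80 to 1.94). Its level was higher in epithelial than in mesenchymal cells, at 23.2 CPM against 14.8 CPM in CNT and 84.0 CPM against 49.7 CPM in 3CK. The treatment ratio was 3.63-fold in epithelial and 3.36-fold in mesenchymal cells. A UMI was seen in 18.1% of CNT and 49.2% of 3CK thinned epithelial cells, and in 7.72% and 32.1% of thinned mesenchymal cells (36.1%, 70.2%, 18.1% and 66.1% without thinning).

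IRF8 (chr16:85899162-85922609), best known from myeloid cells and B cells, was the member whose UMIs lay most in the epithelial class. Its 503 UMIs in CNT gave 4.94 CPM and its 1265 UMIs in 3CK gave 13.8 CPM, a ratio of 2.79-fold (log2 1.48, interval 1.33 to 1.63). Epithelial cells held 89.1% of the IRF8 UMIs of CNT and 90.9% of those of 3CK, while they held 74.8% and 76.3% of all UMIs. The level was 5.88 CPM in CNT versus 16.4 CPM in 3CK epithelial cells. Cells in neither class were at 6.82 CPM and 7.52 CPM, a ratio of 1.10-fold whose interval included no change (log2 -0.40 to 0.71), so in CNT their level was not below the epithelial one. Mesenchymal cells had 14 and 20 UMIs, or 0.713 CPM and 2.19 CPM (log2 1.62, interval 0.56 to 2.72), and with each cell given equal weight this ratio turned to -2.24. After thinning, an IRF8 UMI was seen in 4.94% of CNT and 14.4% of 3CK epithelial cells. None of 311 thinned CNT mesenchymal cells had one, where the exact interval reaches 1.18% at that depth and a floor of 3 cells stands at 0.965%. Of 106 thinned 3CK mesenchymal cells, 3 had one (2.83%). Without thinning the shares were 17.1% and 42.4% in epithelial cells and 1.74% (10 of 574) and 14.5% (18 of 124) in mesenchymal cells.

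Leukocyte markers were measured beside IRF8. PTPRC, the pan-leukocyte marker CD45, was found in 3 of 284 CNT and 3 of 431 3CK epithelial cells with an IRF8 UMI, beside 15 of all 1660 and 5 of all 1016 epithelial cells. The cells with an IRF8 UMI had a median of 16 leukocyte marker UMIs in CNT and 11 in 3CK, against 2 in both for the cells without one. They were also deeper, with a median of 78295 UMIs against 17685.5 in CNT and 102587 against 13403 in 3CK, and the part of depth was not tested. In epithelial cells PTPRC was at 0.236 CPM in CNT versus 0.0856 CPM in 3CK. Summed over the 15 leukocyte markers, the epithelial level was 218 CPM in CNT versus 135 CPM in 3CK, mostly from LCP1 (163 CPM and 67.6 CPM) and CD68 (31.2 CPM and 48.6 CPM). LCP1 decided the direction of that sum: the other 14 markers, a sum chosen after the data were seen, were at 54.5 CPM in CNT versus 67.7 CPM in 3CK, with 6 markers higher and 8 lower in 3CK. The 6 include C1QA, with 0 UMIs in CNT and 2 in 3CK. Of the 15 markers, 14 in CNT and 13 in 3CK had more than 3 UMIs in epithelial cells, and 1 in CNT was at 0. In epithelial cells without any UMI of these markers IRF8 was at 3.87 CPM (6 UMIs) in CNT and 15.3 CPM in 3CK, a subset that holds mostly shallow cells and was chosen after the data were seen. The mesenchymal class of 3CK did carry more leukocyte marker UMIs, at 138 CPM against 61.6 CPM in CNT, mostly from CD68 (91.4 CPM against 26.7 CPM). PTPRC was at 3.62 CPM there, in 6 of 124 cells, against 0.560 CPM in CNT, and SPI1 at 13.5 CPM against 0.458 CPM. LCP1 (10.8 CPM against 17.3 CPM) and CD14 (12.0 CPM against 13.1 CPM) were lower in 3CK. Of the 14 markers without LCP1, 9 were higher and 4 lower in 3CK by CPM alone. The 9 include LYZ (3 UMIs in CNT and 2 in 3CK), ITGAM (2 and 1) and ITGAX (3 and 3). The 4 include CD3E (1 and 0). These counts are too low for a ratio.

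NLRC5 (chr16:56989557-57083520), the transactivator of MHC class I genes, was at 2.53 CPM in CNT (258 UMIs) and 66.5 CPM in 3CK (6112 UMIs). The ratio was 26.3-fold (log2 4.71, interval 4.53 to 4.90). In CNT the gene was higher in the mesenchymal class under every scaling run, at 7.63 CPM against 1.17 CPM in epithelial cells, and the mesenchymal class held 58.1% of its UMIs. The nuclear transcripts MALAT1 and NEAT1, a sign of RNA quality, summed to 12437 CPM in CNT and 5550 CPM in 3CK mesenchymal cells, against 5033 CPM and 7658 CPM in epithelial cells. In 3CK the classes were at 55.7 CPM and 59.8 CPM, and the interval of the log2 ratio between them included 0 (-0.03 to 0.24). The cells in neither class had the highest 3CK level of the 3 groups, 112 CPM against 3.16 CPM in CNT. Those cells were shallow (a median of 12865 UMIs in CNT and 26663.5 in 3CK). MALAT1 and NEAT1 summed there to 29306 CPM and 20274 CPM. After thinning, an NLRC5 UMI was seen in 61.6% of 3CK cells in neither class. The shares were 39.2% in epithelial and 43.4% in mesenchymal cells of 3CK. Without thinning the 3 shares were 64.3%, 65.8% and 78.2%. Thinning sets depth equal only for shares of cells with at least 10000 UMIs. The part of depth and RNA quality in the CPM levels was not tested.

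BATF2 (chr11:64987945-64996971), a basic leucine zipper factor that partners IRF1 in activated macrophages, was the member with the largest ratio. CNT held 76 UMIs (0.746 CPM) and 3CK 11599 (126 CPM). The ratio was 169-fold (log2 7.40, interval 7.08 to 7.75). Epithelial cells were at 0.617 CPM in CNT versus 138 CPM in 3CK, and mesenchymal cells at 1.32 CPM and 45.0 CPM. BATF2 was seen in 8 of 1013 thinned CNT epithelial cells (0.790%) and 475 of 730 in 3CK (65.1%), beside 1.93% and 38.7% of thinned mesenchymal cells (2.59%, 72.8%, 3.14% and 66.9% without thinning).

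ETV7 (chr6:36354088-36387669), an interferon-induced ETS repressor, was at 7.34 CPM in CNT versus 107 CPM in 3CK, a ratio of 14.6-fold (log2 3.87, interval 3.76 to 3.98). The level was 5.95 CPM in CNT versus 102 CPM in 3CK epithelial cells. Mesenchymal cells were at 12.5 CPM in CNT and 9.23-fold above that in 3CK. ETV7 was seen in 4.05% of CNT and 56.7% of 3CK thinned epithelial cells, and in 7.72% and 60.4% of thinned mesenchymal cells (10.7%, 72.4%, 20.7% and 79.8% without thinning).

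**Figure D2:**
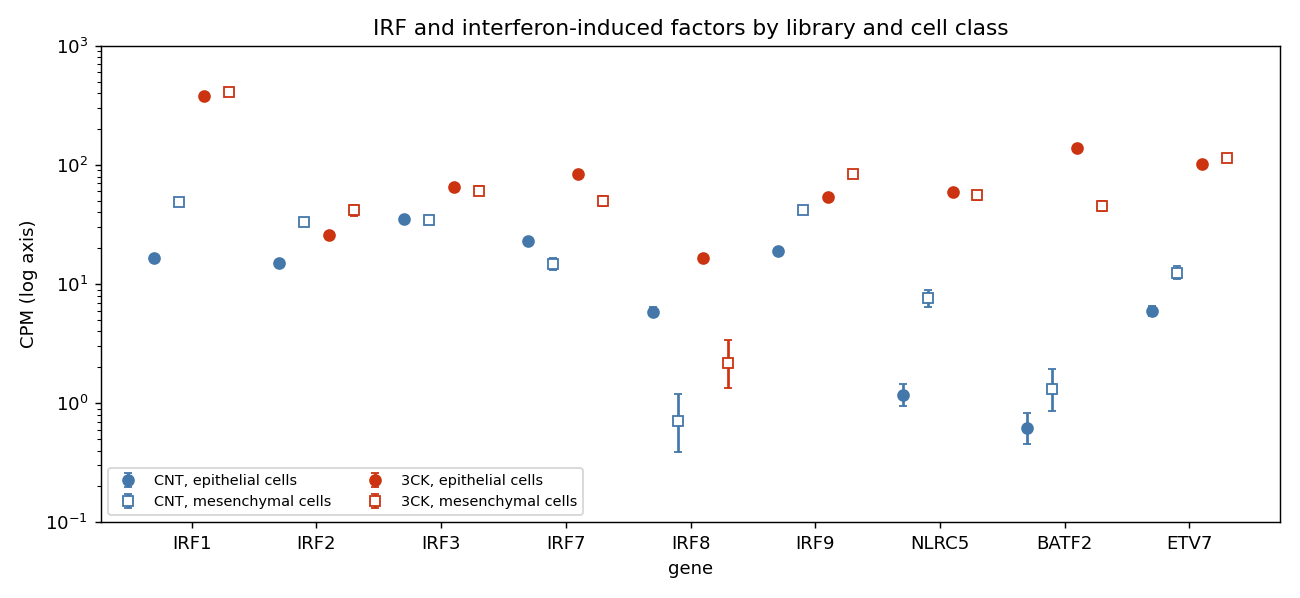
Each point is the CPM (log axis) of a gene summed over the cells of a class in CNT (blue) or 3CK (red), with circles for epithelial and squares for mesenchymal cells and bars for the 95% Poisson interval. IRF1 is near 400 CPM in both 3CK classes, and IRF8 is lower in the mesenchymal than in the epithelial class of both libraries.

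Some members overlap another gene, and whether the authors' counting used strand is not given in the sources used here. C5orf56, which overlaps the IRF1 locus, was at 8.15 CPM in CNT versus 66.8 CPM in 3CK. Z84484.1, which overlaps ETV7, had 19 and 358 UMIs. BCL2L12, which overlaps IRF3, was at 39.6 CPM and 43.0 CPM, AC099343.2 at IRF2 had 19 and 26 UMIs, and AC023825.2 at NLRC5 had 0 and 10 UMIs. Without strand, reads of these pairs could not be told apart where they overlap.

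Within epithelial cells, 7 of the 9 members were at least 2-fold higher in 3CK, against 8.48% of 16809 genes. Within mesenchymal cells the count was also 7 of 9, against 6.05% of 17353 genes. IRF2 and IRF3 were the members under 2-fold in both classes by totals. By totals NLRC5 and BATF2 had the most unequal treatment ratios: log2 5.68 in epithelial against 2.87 in mesenchymal cells for NLRC5, and 7.81 against 5.09 for BATF2. For IRF1 the values were 4.51 and 3.07, and for ETV7 4.10 and 3.21 (each on the log2 scale). Epithelial minus mesenchymal, these differences were 2.81, 2.72, 1.43 and 0.89. The same difference over 13551 genes had a median of 0.19 and a middle 95% from -1.75 to 2.12. For the other 5 members it lay between -0.14 and 0.49. With each cell given equal weight the differences shrank to 1.39 for NLRC5, 1.11 for BATF2, 0.73 for IRF1 and 0.30 for ETV7, and IRF8 had the largest, 3.97, from ratios of 1.73 and -2.24. With 1 library per group the difference between classes was not tested.

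**Figure D3:**
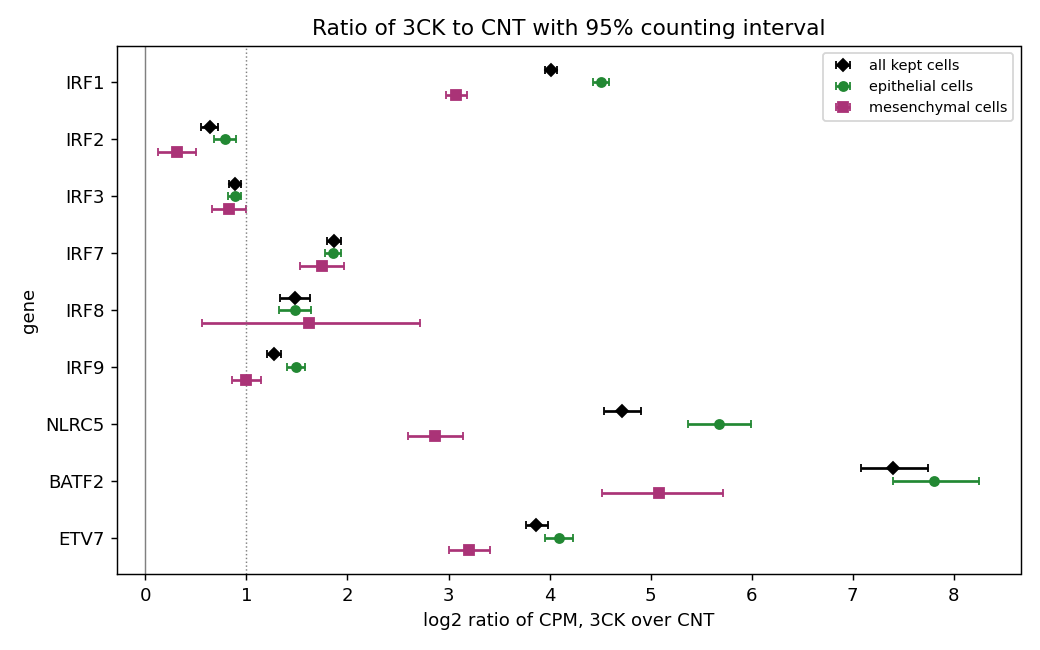
Points give the log2 ratio of CPM in 3CK over CNT for all kept cells (black), epithelial cells (green) and mesenchymal cells (purple), with 95% counting intervals; the dotted line is 2-fold. All points lie above 0, and NLRC5, BATF2, IRF1 and ETV7 have larger ratios in epithelial than in mesenchymal cells.

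Between the classes of CNT, 6 of the 9 members were at least 2-fold higher in mesenchymal cells, where 26.1% of 18033 genes were. These were IRF1, IRF2, IRF9, NLRC5, BATF2 and ETV7, from 2.10-fold for ETV7 to 6.53-fold for NLRC5. That count rests on the scaling: with TMM, which sets the bulk of genes equal and adds 0.39 to each log2 ratio, it was 2 of 9 (IRF1 and NLRC5), and with each cell given equal weight it was 1 of 9 (NLRC5). The 26.1% of all genes is by totals. TMM shifts all genes alike, so the counts under these scalings cannot be set beside that share. IRF8 alone was at least 2-fold higher in epithelial cells by totals (8.25-fold), where 15.1% of genes were. BATF2 rests on 47 and 26 UMIs here. In 3CK none of the 9 was at least 2-fold higher in mesenchymal cells, where 19% of 17177 genes were, and IRF8 (7.48-fold) and BATF2 (3.08-fold) were at least 2-fold higher in epithelial cells, where 16.8% of genes were. The members' median log2 ratio of epithelial to mesenchymal was -1.10 in CNT and 0.10 in 3CK, beside -0.32 and -0.07 for all genes. The 3CK counts were the same with TMM and with equal weights. With equal weights BATF2 in CNT was the higher in epithelial cells (log2 0.40), and IRF8 in CNT the higher in mesenchymal cells (log2 -0.89).

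**Figure D4:**
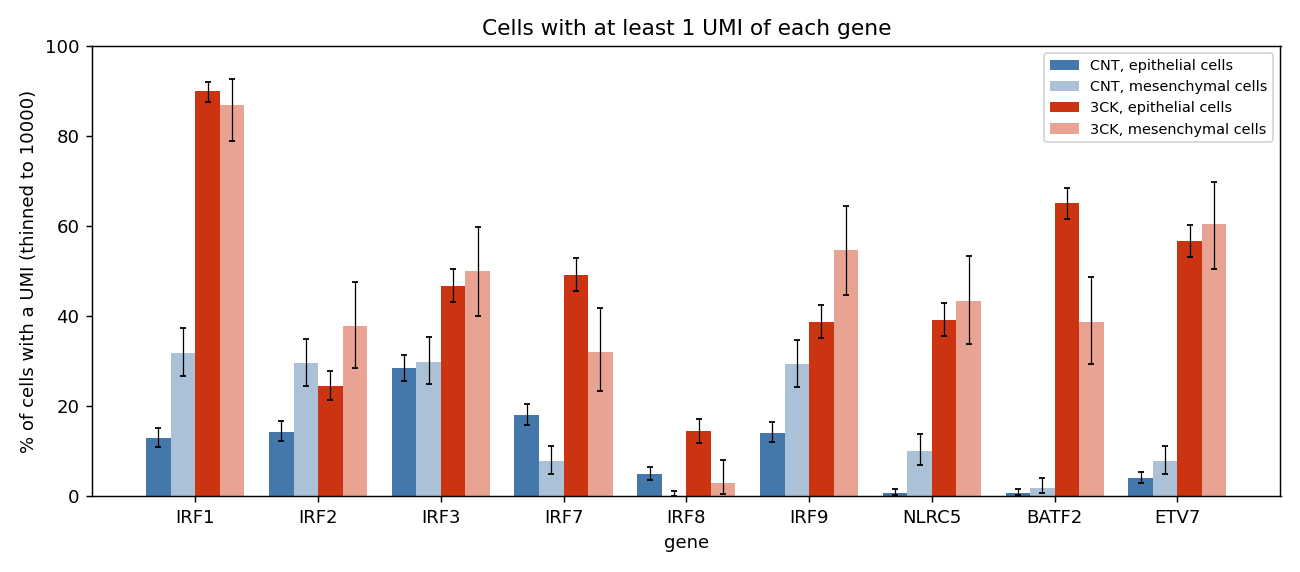
Bars give the percentage of cells with at least 1 UMI of each gene after thinning to 10000 UMIs, for epithelial (full colour) and mesenchymal (pale) cells of CNT (blue) and 3CK (red), with 95% exact binomial intervals. IRF1 is seen in 13.0% of CNT epithelial cells and 657 of 730 3CK epithelial cells, and BATF2 in 0.790% and 65.1%.

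The members were also counted together in single cells. Of the 9 genes, a thinned CNT cell showed a median of 1 and a thinned 3CK cell a median of 4. No member was seen in 462 of 1458 CNT cells (31.7%) and in 10 of 995 3CK cells (1.01%). IRF1, BATF2 and ETV7 were seen together in none of the 1458 CNT cells, where the exact interval reaches 0.253% at that depth, and in 348 of the 995 3CK cells (35.0%, interval 32.0% to 38.0%). The joint share was 37.4% in 3CK epithelial and 20.8% in 3CK mesenchymal cells. These 3 genes are among the members with the largest ratios. Their single shares were 17.4%, 0.960% and 5.42% of the CNT cells, and 89.3%, 61.1% and 57.1% of the 3CK cells. BATF2 alone was seen in only 14 of the 1458 CNT cells, so few could hold all 3. Whether the joint shares exceed what the single shares alone would give was not tested. Over the 730 thinned 3CK epithelial cells, Spearman's rho over the 36 pairs of members ran from -0.13 (IRF7 and NLRC5) to 0.23 (IRF1 and BATF2), with a median of 0.05. These are weak relations in sparse counts from cells that share a library, and they are given as a description only.

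Within the epithelial class, cells were divided by TTR, a secreted carrier protein abundant in part of these organoids. CNT had 98 cells under 50 TTR UMIs per 10000 and 620 over 500, and 3CK had 284 and 82. Over all genes the median log2 ratio of the low to the high range was 0.82 in CNT and 0.81 in 3CK. Most members were near the median: IRF1 was at 1.05 in CNT and 0.98 in 3CK on the log2 scale, and ETV7 at 0.91 and 0.87. NLRC5 was farther off, at 5.64 CPM in the low and 0.547 CPM in the high range of CNT (log2 3.37) and at 104 CPM and 23.1 CPM in 3CK (log2 2.18). IRF8 went the other way in CNT, at 1.71 CPM (10 UMIs) in the low and 6.40 CPM (269 UMIs) in the high range (log2 -1.90), but not in 3CK, at 19.6 CPM and 9.63 CPM (log2 1.02). Because the ranges hold different shares of the 2 libraries, the treatment ratios were also taken within each, a comparison added after the data were seen. The count of members at least 2-fold higher was 6 of 9 under 50, 7 from 50 to 500 and 6 over 500, beside 7 for the whole class. A share of all genes was not taken within the ranges, so these counts have no background. Depth was most unequal from 50 to 500, where CNT cells had a median of 2561 UMIs against 76062 for 3CK cells. Under 50 the medians were 49240.5 (CNT) against 61421 (3CK), and over 500 they were 67914.5 against 78359.5. What depth adds to these counts was not tested. NLRC5 was 18.5-fold, 39.2-fold and 42.2-fold higher in these ranges, against 51.2-fold in the class. IRF8 was 11.4-fold higher in the low range but 1.51-fold in the high one, and IRF9 was 1.95-fold higher in the low range.

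**Figure D5:**
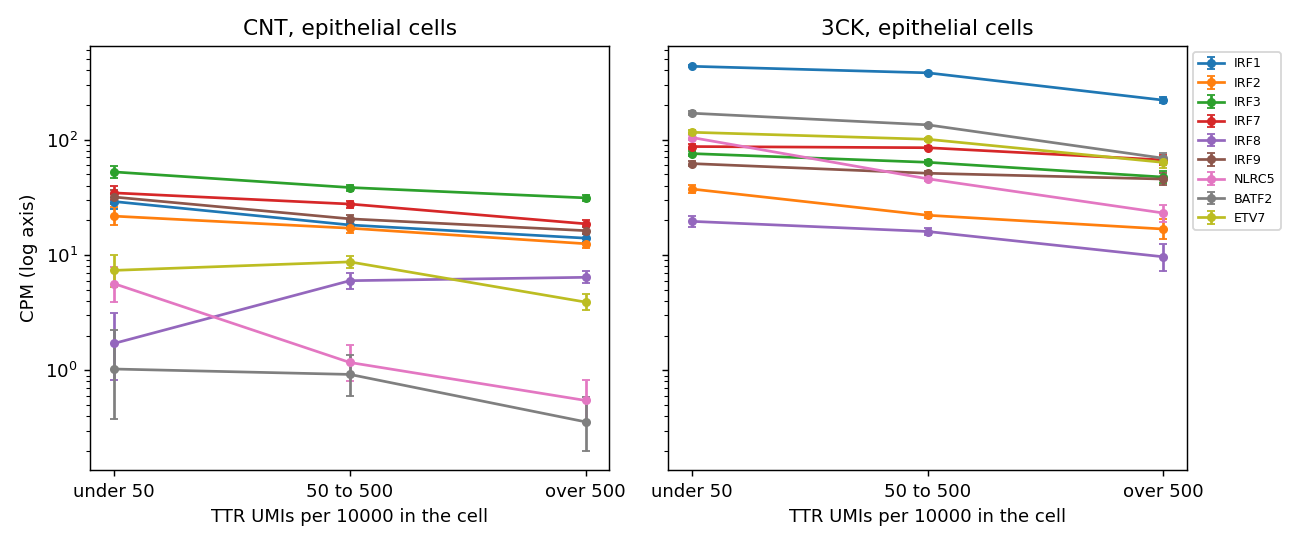
Points give CPM (log axis) of each member in epithelial cells with under 50, 50 to 500 and over 500 TTR UMIs per 10000, for CNT (left) and 3CK (right), with 95% Poisson intervals. NLRC5 declines most from the low to the high range in both libraries, and IRF8 is lowest in the low range of CNT but highest there in 3CK.

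Cells with at least 3 UMIs per 10000 of 5 cycling genes made up 102 CNT and 60 3CK epithelial cells. In 3CK, BATF2 was at 85.6 CPM in these and 141 CPM in the others, whereas IRF8 was at 23.1 CPM and 16.1 CPM. NLRC5 was at 61.1 CPM and 59.7 CPM, with overlapping intervals. The cycling cells were shallower, with a median of 7713.5 UMIs against 73820 in the others, and the part of depth was not tested.

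The other genes of the family and pathway were taken from 11 lists. Among other IRF family genes, IRF5 was at 0.746 CPM in CNT versus 0.675 CPM in 3CK. IRF4, a lymphoid IRF, had 1 and 2 UMIs. The IRF2-binding corepressors were at 5.46 CPM and 4.19 CPM (IRF2BP1), 49.7 CPM and 60.8 CPM (IRF2BP2) and 10.4 CPM and 9.83 CPM (IRF2BPL), none of them 2-fold higher or lower.

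Upstream, 9 of 15 interferon receptors and signal transducers were at least 2-fold higher in 3CK and none was lower by that much. The median log2 ratio of the 15 was 1.08. The classes differed in this list: 9 of the 15 were higher and none lower in epithelial cells (median 1.42), whereas 4 were higher and 1 lower in mesenchymal cells (median 0.19), the lower one being the type III receptor chain IFNLR1 with 22 and 4 UMIs. USP18, which damps type I interferon receptor signalling, had the largest ratio (log2 3.42) and the receptor chain IFNAR1 the smallest (log2 0.10). Of 14 activators of IRF3 and IRF7, 6 were at least 2-fold higher and none lower. They ran from IFIH1, the RNA sensor MDA5 (log2 3.99), to STING1 (log2 -0.10), and RIGI, the most abundant, was at 19.0 CPM in CNT versus 138 CPM in 3CK. Of 9 interferon genes, the only one to reach 1 CPM was IFNL1, a type III interferon, with 3 CNT and 93 3CK UMIs. Of the 93, 62 were in epithelial cells, 31 in cells of neither class and 0 in mesenchymal cells. IFNG had 3 and 2 UMIs, IFNE 2 and 2, IFNA2 1 and 1, IFNK 1 and 1, IFNB1 0 and 1 and IFNL2 0 and 2. IFNA1 and IFNL3 had none in either library.

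Downstream, 12 of 12 genes known to be driven by the complex of IRF9 were at least 2-fold higher in 3CK. Their median log2 ratio was 4.80, from ISG15, also the most abundant (400.0 CPM in CNT versus 4818 CPM in 3CK, log2 3.59), to OAS2 (log2 6.42). Of 14 genes known to be driven by IFN-γ and IRF1, 13 reached 1 CPM and all 13 were at least 2-fold higher, with a median log2 ratio of 5.71. CXCL10, a T cell attractant, had the largest (0.540 CPM and 1918 CPM, log2 11.79) and IL15 the smallest (log2 2.25). The gene under 1 CPM was CIITA, the class II counterpart of NLRC5, at 0.246 CPM and 0.218 CPM. Of 8 MHC class I pathway genes driven by NLRC5, 8 were at least 2-fold higher, from B2M (1433 CPM and 9349 CPM, log2 2.71) to HLA-F (3.05 CPM and 297 CPM, log2 6.60).

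The DNA-binding partners of NLRC5 did not share this pattern: 0 of 8 were 2-fold higher or lower, and their median log2 ratio was 0.06. They ran from NFYB (log2 -0.36) to RFXANK (log2 0.77). In the BATF and AP-1 family 3 of 8 genes were at least 2-fold higher, with a median of 0.23, from FOS (log2 -0.96) to BATF3 (log2 1.68), and JUND was the most abundant at 311 CPM and 319 CPM. In the ETS family 5 of the 6 genes that reached 1 CPM were at least 2-fold higher. SPI1, a leukocyte factor and partner of IRF8, had the largest ratio (log2 3.32, 19 and 171 UMIs), and ELF1 was at 84.8 CPM in both. Of the 171 SPI1 UMIs, 123 were in mesenchymal and 17 in epithelial cells, where IRF8 had 20 and 1150 UMIs. Of 8 NF-kB subunits and inhibitors 3 were at least 2-fold higher, with BIRC3 the largest (log2 4.49), REL the smallest (log2 0.47) and NFKBIA the most abundant (47.7 CPM and 159 CPM). The list counts over all kept cells stand beside the 6.96% of all genes at least 2-fold higher and the 11.3% at least 2-fold lower. Those by class stand beside 8.48% higher in epithelial and 6.05% higher in mesenchymal cells. A share of lower genes by class was not taken, and the lists were not tested.

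For each member the genes with the nearest profile were sought over 4 sums, the 2 classes in each library, by the distance of centred log2(CPM + 1) values among 13663 genes. IRF1 was nearest to HLA-B, IL15RA and IFI6, and ETV7 to HLA-B, TNFSF13B and LAP3. NLRC5 was nearest to SERPING1 and UBE2L6, and BATF2 to ICAM1, IFIT2 and TAP1. IRF9 was nearest to TM4SF19, ATF5 and ANXA1, and IRF7 to CCL25, AC009133.1 and HAPLN3. IRF8 was nearest to LRG1, SLC51A and DUSP5. The members under 2-fold, IRF2 and IRF3, were nearest to POLR3D, MOB3A and PPP3CC and to AL049840.5, PDP1 and DYNLT1. Each profile was centred, so near genes share a pattern over the 4 sums and need not share a level. BATF2 was the member farthest from its nearest gene (distance 0.655) and IRF3 the closest (0.046). With 4 points per gene this is a description only.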

How the data were processed

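Single-cell RNA was measured in 2 libraries. The authors deposited UMI counts per gene and barcode, made with Cell Ranger 7.1.0 per the file headers and with GRCh38 per the submitters' processing notes. The sources used here do not give the annotation, the strand setting or whether introns counted. Positions and promoters come from RefSeq GRCh38.p14, matched by symbol.

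Barcodes with at least 500 genes and at most 20% mitochondrial UMIs were kept, and the highest Scrublet scores (scanpy 1.11.5) were removed at 0.8% per 1000 barcodes. Of 3257 CNT and 1641 3CK barcodes, 770 and 243 were left out (412 and 52 for genes, 306 and 175 for mitochondrial share, 52 and 16 as doublets). No barcode was shared. UMIs were summed over cells and scaled to CPM. Sums have Poisson intervals, ratios an interval from the binomial share of both counts, and shares Clopper-Pearson intervals. The ratio and share intervals were tested on simulated data. With 0 UMIs a floor of 3 is used. TMM factors come from edgeR 4.0.16.

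The members, classes and lists were chosen with earlier results of these data known. All members are named, and from each list the most abundant gene, the largest and smallest ratio, STAT2, other IRF genes and all interferons. Some genes that this rule selects are not reported here. CIITA, the single leukocyte markers and the overlapping genes were chosen after values were seen. A planned comparison of IRF proteins was not run. Alternatives were the barcode and doublet filters, depth, scaling, cell weights, class boundaries and thinning depth.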

Additional observations from a re-analysis of the deposited data

Results flagged for a closer look

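The 770 CNT and 243 3CK barcodes left out by the filters on cells also differed between the libraries for 7 of the 9 genes. A difference here means a counting interval of the log2 ratio above 0, or for BATF2 UMIs in 3CK only, and not 2-fold. The interval included 0 for IRF2 (log2 0.11, -0.30 to 0.51) and IRF8 (log2 0.70, -0.14 to 1.56). The same share over all genes was not taken in these barcodes. In the 3CK barcodes left out IRF1 was at 282 CPM, against 20.4 CPM in those of CNT. IRF7 was at 59.8 CPM against 10.0 CPM, and ETV7 at 82.3 CPM against 4.59 CPM. NLRC5 was at 105 CPM against 9.76 CPM. BATF2 was at 86.6 CPM (262 UMIs) against 0 UMIs. Among the 7, the smaller differences were those of IRF3, at 61.8 CPM against 32.7 CPM (log2 0.92, under 2-fold), and IRF9, at 47.9 CPM against 19.2 CPM. What these barcodes hold was not tested.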

How the results depend on the processing

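Of 432 alternative values of the members' log2 ratios, 356 lay within the counting interval, 73 lay outside it with the direction kept or a size under 2-fold, and 3 of at least 2-fold changed sign. These 3 came from giving each cell equal weight: IRF8 for 3CK over CNT in mesenchymal cells (log2 -2.24, against 1.62 by sums and 2.41 in cells with at least 10000 UMIs), and the CNT ratio of epithelial to mesenchymal for IRF8 (log2 -0.89) and BATF2 (log2 0.40). In the IRF8 case 5 of the 10 CNT mesenchymal cells with an IRF8 UMI had under 10000 UMIs, and 1 cell with 715 UMIs alone stood at 1399 CPM. Without that cell the mean over CNT mesenchymal cells fell from 9.01 CPM to 6.59 CPM. It stayed above the 1.91 CPM of 3CK, so the change of sign did not rest on that cell alone. Equal weights also moved NLRC5 in mesenchymal cells from 2.87 to 4.10 and IRF2 there from 0.31 to 0.94. Of the ratios under 2-fold between the classes, IRF1 in 3CK turned to 0.06 with TMM scaling, NLRC5 in 3CK to -0.32 and ETV7 in 3CK to 0.10 with equal weights (ETV7 also to 0.0040 with stricter class boundaries), and IRF3 in CNT to -0.01 with the stricter barcode filter. The members' median log2 ratio was 1.96 with TMM scaling, 1.77 with a total without mitochondrial, ribosomal and the 50 most abundant genes, and 2.02 with equal weights. The count of members at least 2-fold higher was 7 under every alternative run in all kept and in epithelial cells, and 6 to 8 in mesenchymal cells, where IRF9 lies at the boundary and IRF3 passed it with TMM scaling. The count of members at least 2-fold higher in CNT mesenchymal than epithelial cells, 6 by totals, ran from 1 (equal weights) and 2 (TMM) to 6, and in 3CK it was 0 throughout. These alternative counts have no share of all genes beside them. Shares of cells depend on the thinning depth, and 149 of 162 alternatives moved them. No paired analysis was possible because each group has 1 library. Depth limits IRF8 and BATF2 in CNT mesenchymal cells, with 14 and 26 UMIs.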
